A study of Mus musculus with 2 samples.

Results

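In mouse striatum, 4 microRNAs (miRNAs, small regulatory RNAs that silence messenger RNAs) known chiefly from tissues other than brain were followed: miR-1a-3p and miR-133a-3p of muscle, miR-141-3p of epithelium and miR-144-3p of red blood cells. They were taken by identifier, as the rows MIMAT0000123, MIMAT0000145, MIMAT0000153 and MIMAT0000156, and are 4 of the 3200 rows of the deposited table. The rule that chose them uses identifiers and no measured value, but the choice was made with earlier results of these data known. The R6/2 array came from male R6/2 mouse striatum at an age of 10 weeks, and the wild-type array from male wild-type mouse striatum at the same age. R6/2 mice carry exon 1 of human huntingtin with an expanded CAG repeat, under the human huntingtin promoter, and are a model of Huntington's disease. The number of animals behind each array is not in the labels. With 1 array per genotype, no value below has a replicate error, no test was possible, and each difference is one between 2 arrays.

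The table names its rows by identifiers of the miRBase form and gives no miRNA names. The identifiers rise by 1 at all 3199 steps, which a list of mouse miRNAs would not do throughout. Names were therefore used only for the 45 rows from MIMAT0000121 to MIMAT0000165, where successive miRBase identifiers all belong to mouse miRNAs, and they rest on miRBase numbering, not on the table. The 6 rows of this range that carry the identifiers of neuron-enriched miRNAs (miR-124-3p, miR-128-3p, miR-9-5p, miR-9-3p, miR-137-3p and miR-138-5p) served as a check of tissue and naming. All 6 were bright in both arrays, the lowest at 67.5 times the array median in R6/2 and 47.3 times in wild-type striatum. Most named rows lay above that median, 42 of 45 in R6/2 and 41 of 44 filled ones in wild-type, so the check is weak. The 6 also lay above the median of the named rows, which was 520.6 in R6/2 and 494.05 in wild-type, with lowest intensities of 1686.4 and 1183.7. Their brightness does not test the names of the 4 rows described here. Values are normalized fluorescence intensities on a linear scale, and the median of each array over its own filled rows was 25.

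A miRNA is cut from a hairpin precursor and pairs with messenger RNAs mainly through its seed, bases 2 to 8. In muscle, miR-1 and miR-133a are made from shared precursor transcripts and act in the differentiation and growth of heart and skeletal muscle cells. The miRNA miR-141 belongs to the miR-200 family, which keeps cells epithelial by repressing the Zeb transcription factors. The miRNA miR-144 is made together with miR-451a and is abundant in developing red cells. In brain tissue such miRNAs can serve as signs of other cells or blood taken with the sample.

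The mature sequences of the epithelial and the red-cell miRNA are shown for their seeds, with that of miR-200a-3p as a relative of miR-141-3p in the miR-200 family. Sequences and positions are from RefSeq (GRCm38.p6), where 2 of the 4 miRNAs were matched by name, and capitals mark the seed.
miR-141-3p: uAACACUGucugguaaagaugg
miR-200a-3p: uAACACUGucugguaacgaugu
miR-144-3p: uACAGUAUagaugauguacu
The mature miR-141-3p lies at chr6:124717917-124717938 on the minus strand, in a gene of its own that overlaps no other annotated gene and lies between Phb2 and Mir200c. The mature miR-144-3p lies at chr11:78073047-78073066 on the plus strand, also in a gene of its own that overlaps no other, next to the Mir451 genes. The mature miR-200a-3p lies at chr4:156054911-156054932 on the minus strand. Among the mature mouse miRNAs of the table used, miR-141-3p shares its seed with miR-200a-3p alone, and no other has the seed of miR-144-3p. Over their 22 bases miR-141-3p and miR-200a-3p differ at 2, A17C and G22U, counted from the 5′ end with the base of miR-141-3p first. Whether the array probe tells these 2 miRNAs apart was not tested.

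All 4 miRNAs had a value in both arrays, so none of their 8 cells was blank. The muscle miRNA miR-1a-3p read 100.3 intensity units in R6/2 striatum and 133.7 in wild-type, which is 4.01 and 5.35 times the array median. The other muscle miRNA, miR-133a-3p, read 52.1 in R6/2 striatum and 58.6 in wild-type, 2.08 and 2.34 times the median. Both muscle miRNAs thus lay above the median of all filled rows of their array in both genotypes. Against the median of the 45 named rows, which are mostly bright, they lay below, at 0.193 and 0.100 times it in R6/2 and 0.271 and 0.119 times it in wild-type. The epithelial miR-141-3p read 17.1 in R6/2 striatum and 20.2 in wild-type, 0.684 and 0.808 times the median. The red-cell miR-144-3p read 8.2 in R6/2 striatum and 8.1 in wild-type, 0.328 and 0.324 times the median. The epithelial and the red-cell miRNA thus lay below the median in both genotypes.

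**Figure D1:**
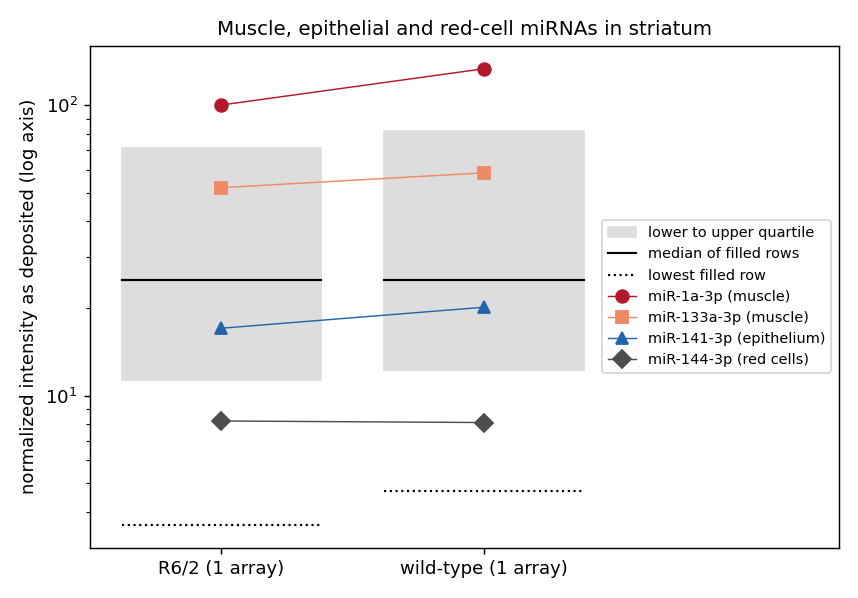
Deposited intensity (log axis) of the 4 miRNAs in the R6/2 and the wild-type array, with the interquartile band, the median and the lowest of each array's filled rows. The muscle miRNAs sit above the median of 25 in both arrays, miR-141-3p sits below it, and miR-144-3p sits below the grey band.

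Each miRNA was also placed by rank within its array. For miR-1a-3p, 79.4% of the 1650 filled rows of the R6/2 array and 80.5% of the 1376 filled rows of the wild-type array lay at or below its intensity. For miR-133a-3p the shares were 69.4% and 69.7%. These shares are over different rows. Over the 1369 rows filled in both arrays they were 75.2% in R6/2 and 80.4% in wild-type for miR-1a-3p, and 63.1% and 69.5% for miR-133a-3p, so both muscle miRNAs ranked lower in R6/2 there. For miR-141-3p the shares of filled rows were 37.3% for R6/2 and 43.2% for wild-type, and the shares of shared rows were 24.5% and 42.9%. For miR-144-3p the shares of filled rows were 16.6% and 11.6%, and those of shared rows were 4.53% and 11.2%. The order of the genotypes for miR-144-3p thus turned with the rows ranked. Its intensity was 2.28 times the lowest filled value in the R6/2 array and 1.72 times that in the wild-type array. The red-cell miRNA was therefore close to the dim end of both arrays. Probes differ in how strongly they bind and label, so the order of intensities among the 4 miRNAs is not an order of RNA amounts.

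The genotypes were compared to see whether these miRNAs of other tissues differed between the 2 samples, as a check on tissue carried over with the striatum. On the deposited scale, the log2 R6/2-to-wild-type ratio was -0.41 for miR-1a-3p, 1.33-fold lower in R6/2. It was -0.17 for miR-133a-3p, 1.12-fold lower. Both muscle miRNAs were thus lower in the R6/2 array, and their ratios differed by 0.25 on the log2 scale. The ratio was -0.24 for miR-141-3p, 1.18-fold lower in R6/2, and 0.02 for miR-144-3p. The 2 values of miR-144-3p differ by the last decimal printed, and rounding alone allows a log2 ratio from 0 to 0.04, so its direction was not resolved. In bulk tissue, fewer cells of a type and less of an RNA per cell cannot be told apart.

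On the deposited scale the R6/2 value was the higher one in most rows filled in both arrays. The median of each array over its own filled rows was 25, with 1650 such rows in R6/2 and 1376 in wild-type. Over the shared rows alone the medians were 33.5 in R6/2 and 25.3 in wild-type, so the offset between the arrays depends on the rows taken. Over the 1369 rows filled in both arrays the median log2 ratio was 0.30, so ratios are given relative to it as well. Relative to that median the log2 ratios were -0.72 for miR-1a-3p, -0.47 for miR-133a-3p, -0.54 for miR-141-3p and -0.29 for miR-144-3p. All 4 ratios lay below the median of the shared rows, as did 30 of the 44 named rows filled in both arrays (68.2%), and the median of the 4 was -0.20 as deposited and -0.51 relative to it.

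None of the 4 miRNAs differed 2-fold. As deposited 0 of 4 were at least 2-fold apart, against 7.16% of the 1369 shared rows, and relative to the median ratio 0 of 4 were, against 3.94%. At 1.5-fold, 0 of 4 were lower in R6/2 as deposited, against 1.53% of shared rows. Relative to the median ratio 1 of 4 was, against 5.41%, and this was miR-1a-3p, at 1.65-fold lower. By any amount, 3 of 4 were lower in R6/2 as deposited, against 15.3% of shared rows. In the 44 rows of the named range that were filled in both arrays, the 4 miRNAs included, 12 (27.3%) were lower in R6/2. A count over 4 rows of 1 pair of arrays carries no error, and whether these miRNAs as a group stand apart was not tested.

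**Figure D2:**
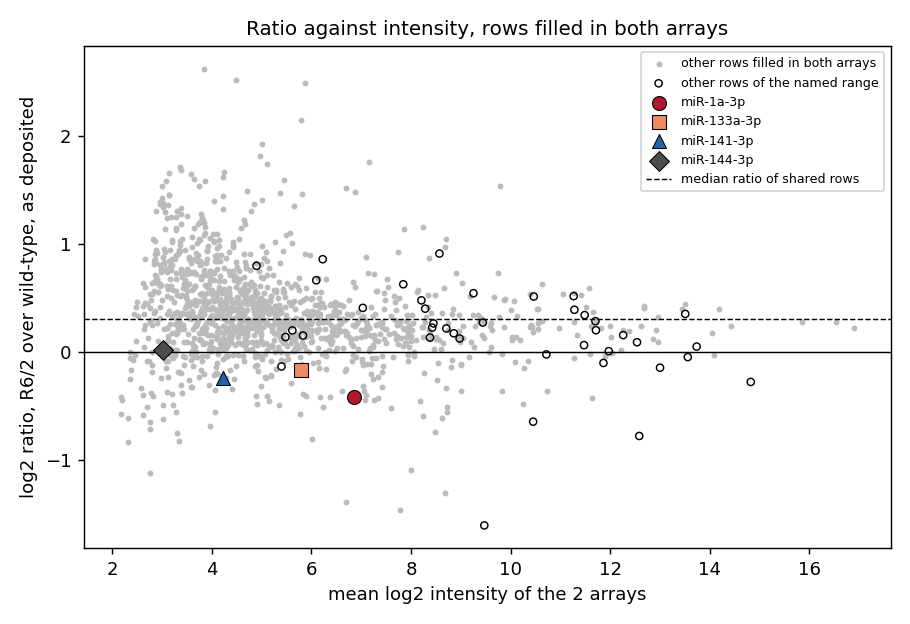
Log2 R6/2-to-wild-type intensity ratio against mean log2 intensity, 1 point per row filled in both arrays (n = 1369), with the median ratio of 0.30 dashed. The muscle and epithelial miRNAs lie below 0, miR-144-3p lies at 0.02, and ratios scatter more widely among dim rows.

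Because ratios scattered more among dim rows, each miRNA was set beside the rows of its own intensity class, the shared rows being ranked by mean log2 intensity into 4 classes of like size. The ratio of miR-1a-3p lay 0.62 below the median ratio of the brightest class, where the robust SD (the scaled median absolute deviation) was 0.22. In that class 20 of 342 rows (5.85%) had a ratio as low or lower. The class is wide, from 6.48 to 16.89 in mean log2 intensity, and miR-1a-3p lay near its dim end at 6.86. The ratio of miR-133a-3p lay 0.45 below the median of the second brightest class, where the robust SD was 0.23 and 22 of 342 rows (6.43%) were as low or lower. Both muscle miRNAs thus lay low within their class, with other rows further out. The ratio of miR-141-3p lay 0.63 below the median of the second dimmest class, where the robust SD was 0.31 and 9 of 342 rows (2.63%) were as low or lower. The ratio of miR-144-3p lay 0.43 below the median of the dimmest class, where the robust SD was 0.51 and 68 of 343 rows (19.8%) were as low or lower. The red-cell miRNA was therefore within 1 robust SD of the median of its class. These spreads are between rows of 1 pair of arrays, not between animals.

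Markers of other cells that a piece of striatum can hold were read beside these values. Of the vessel-wall miRNAs, miR-126a-5p and miR-126a-3p of endothelium and miR-145a-5p of smooth muscle, 3 of 3 were higher in R6/2 as deposited, against 84.3% of shared rows, with log2 ratios from 0.22 to 0.40. Relative to the median ratio the 3 lay between -0.09 and 0.09. Their intensities summed to 4036 for R6/2 and 3212 for wild-type, mostly from miR-126a-3p at 3228.0 and 2552.7. The vessel-wall miRNAs thus lay with the bulk of the rows.

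Of 4 white-cell miRNAs, 3 had a value in both arrays. The myeloid and lymphoid miR-142a-5p had a log2 ratio of -0.14 and its partner arm miR-142a-3p one of 0.79, while miR-150-5p of lymphocytes had one of 0.54. The activation-linked miR-155-5p had an intensity of 8.9 in R6/2 striatum and a blank cell in wild-type. Relative to the median ratio the 3 miRNAs filled in both arrays lay at -0.44 (miR-142a-5p), 0.49 (miR-142a-3p) and 0.24 (miR-150-5p). As deposited 2 of the 3 were higher in R6/2, against 84.3% of shared rows. Intensities of the 3 summed to 815.6 for R6/2 and 572.8 for wild-type, mostly from miR-150-5p at 736.2 and 506.0. The 2 arms of miR-142a came from 1 hairpin and had ratios of opposite sign, at intensities of 22.6 to 44.2.

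Of the 6 neuron-enriched miRNAs, 5 were lower in R6/2 and 1 was higher as deposited, where 15.3% of shared rows and 27.3% of the named rows were lower, with a median log2 ratio of -0.13 and a range from -0.78 for miR-128-3p to 0.51 for miR-137-3p. Relative to the median ratio their median was -0.43. Their intensities summed to 55922 for R6/2 and 65934 for wild-type. The brightest row, miR-124-3p, gave 26311.6 and 31943.2 of these, and miR-128-3p gave 4682.7 and 8038.4. Such sums weigh bright probes most and are not amounts of RNA. The part of any of these cell types in the ratios of the 4 miRNAs was not tested.

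**Figure D3:**
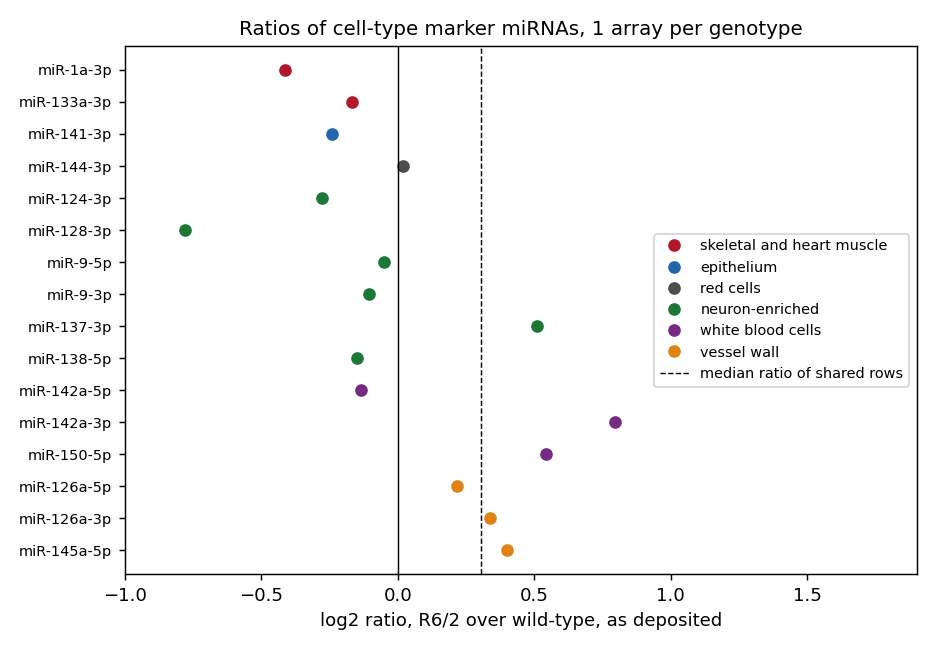
Log2 R6/2-to-wild-type intensity ratio, as deposited, for the 4 miRNAs and 12 markers of neurons, white blood cells and vessel wall that were filled in both arrays (1 array per genotype, no error bars). Muscle and epithelial miRNAs and 5 of 6 neuron-enriched ones lie left of 0, and the 3 vessel-wall ones lie right of it near the dashed median of 0.30.

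Within the named range, the rows most like each miRNA were found by distance between pairs of log2 intensities, over 2 arrays. Closest to miR-1a-3p was miR-146a-5p (MIMAT0000158), an immune-response miRNA, at a distance of 0.63, with intensities of 150.5 for R6/2 and 113.6 for wild-type. The genotypes were in the reverse order there, with a log2 ratio of 0.41. The next rows, MIMAT0000162 and MIMAT0000124, lay at distances of 1.27 and 1.32 and were also higher in R6/2. None of these 3 rows had the lower R6/2 value of miR-1a-3p. A higher R6/2 value was the usual case, found in 84.3% of all shared rows and in 32 of the 44 shared named rows. Closest to miR-133a-3p were miR-135a-5p (MIMAT0000147), MIMAT0000146 and MIMAT0000161 at distances of 0.23, 0.36 and 0.49. All 3 had log2 ratios between 0.14 and 0.20, in the direction of most shared rows. Closest to miR-141-3p was miR-142a-3p at 1.21, followed by miR-142a-5p at 1.67 and miR-144-3p at 1.69. Closest to miR-144-3p was miR-141-3p, followed by miR-142a-3p and miR-142a-5p at 2.70 and 3.35. Few rows of this range were dim, so the neighbours of the epithelial and red-cell miRNAs were distant.

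The ratios were also computed on 7 other scales, which were 3 ways of centring, quantile normalization, removal of the intensity trend and 2 pseudocounts. Centring, quantile normalization and trend removal all take off the higher R6/2 values of the rows filled in both arrays. Ratios already below 0 were thus bound to stay there under centring, and their sign is no sign of stability. Over the 7 scales miR-1a-3p lay between -0.72 and -0.34, miR-133a-3p between -0.47 and -0.12 and miR-141-3p between -0.70 and -0.10. The ratio of miR-144-3p was below 0 in 6 of the 7 and 0.00 with the pseudocount at the median. The centring constants of 0.30, 0.24 and 0.16 all exceeded its deposited ratio of 0.02. Its sign under centring was thus also fixed, and the count of 6 does not resolve its direction. The ratio of miR-1a-3p was the lowest of the 4 as deposited, under centring and with a pseudocount, and that of miR-141-3p was the lowest after quantile normalization and trend removal.

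**Figure D4:**
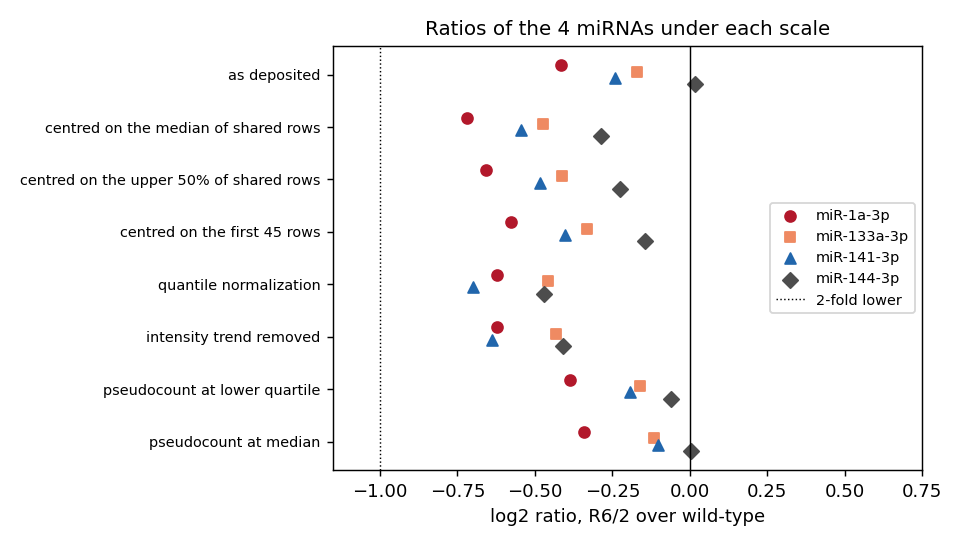
Log2 R6/2-to-wild-type intensity ratio of the 4 miRNAs as deposited and under 7 other scales, 1 point per miRNA and scale. No point reaches the dotted line at 2-fold lower, and the points of miR-144-3p are nearest to 0 on every scale shown except quantile normalization.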

How the data were processed

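Total RNA of striatum was extracted with TRIzol, labelled with the single dye Hy5 and hybridised to 3D-Gene mouse miRNA chips, per the labels' protocols. The deposited values are normalized intensities with 1 decimal. Each array's median is 25, so the authors' intensities appear scaled to it. The procedures for background correction, scaling and blank cells were not given in the sources used here.

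From the deposited intensities, levels over the array median, ranks among filled rows and log2 ratios without a pseudocount were computed, as deposited and minus the median over the 1369 rows filled in both arrays. With 1 array per group there was no test; the number of arrays limits the precision. The text names the 4 miRNAs, the 3 nearest rows of each and the marker lists. Members and lists were chosen with earlier results of these data known. The ratio scales other than the pseudocounts were tested on simulated data with known changes. The simulated arrays differed by a flat shift, with the same noise at all intensities and none in the 4 miRNAs. They held no intensity trend and no wider scatter of dim rows, so how the scales handle these was not tested. Software was Python 3.11.15 with numpy 2.4.6, pandas 2.3.3, statsmodels 0.14.6 (lowess, span 0.4) and matplotlib 3.10.9.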

Additional observations from a re-analysis of the deposited data

How the results depend on the processing

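A log2 ratio or level counted as moved at a change of 0.25 (log2), and a rank share at 10 percentage points. A count of 0 rows past a fold counted as moved at any change. Centring on the shared rows moved the 4 log2 ratios to -0.72 (miR-1a-3p), -0.47 (miR-133a-3p), -0.54 (miR-141-3p) and -0.29 (miR-144-3p), as the constant of 0.30 fixes. Quantile normalization gave -0.46, -0.70 and -0.47 for miR-133a-3p, miR-141-3p and miR-144-3p, and trend removal gave -0.43, -0.64 and -0.41. Both set the overall ratio near 0 by construction. Over the median of shared rows, which was 33.5 in R6/2, the R6/2 levels were 2.99, 1.56, 0.510 and 0.245 times the median, in the order miR-1a-3p, miR-133a-3p, miR-141-3p and miR-144-3p. Over the median of the 45 named rows, which are mostly bright, they were 0.193, 0.100, 0.0328 and 0.0158 in R6/2 and 0.271, 0.119, 0.0409 and 0.0164 in wild-type striatum, so the muscle miRNAs lay above or below the reference by its choice. Ranked among shared rows alone, the R6/2 share was 24.5% for miR-141-3p and 4.53% for miR-144-3p, against 42.9% and 11.2% in wild-type. At 1.5-fold with centring, a pairing chosen after seeing the data, 1 of 4 was lower. The other 39 of 64 alternative values did not move by these limits, but many of them hardly could. Centring on the upper 50% of shared rows or on the named rows takes off 0.24 or 0.16, below the limit of 0.25. The wild-type median was 25 over filled rows and 25.3 over shared rows, which left its levels and ranks little room to change. The 39 are therefore no measure of stability. Low intensity limits the ratio of miR-144-3p most. No paired analysis was possible because 1 array stands for each genotype, and no replicate could be left out.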
